A study of Mus musculus with 30 samples.

Results

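Acetylation of lysine 56 of histone H3 (H3K56ac) was compared between lymphoproliferative disease (LPD) of mice without Crebbp and normal B cells. The comparison used 4 of the series' 30 samples, each a list of chromatin immunoprecipitation (ChIP-seq) peaks: 2 lists of wild-type B cells and 2 of Crebbp-null LPD. Peaks of the 4 lists that overlapped or touched were joined into 34515 regions. Of these, 8183 regions (23.7%) were gained, with a peak in each LPD list and none in B cells. Another 1453 regions (4.21%) were lost, with the reverse pattern, and 12125 (35.1%) were kept, with a peak in all 4 lists. The other 12754 regions had a mixed pattern and were placed in none of these classes.

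All animals were C57BL/6 mice with floxed Crebbp alleles. The wild-type group was labelled CBPfl/fl:Mx-Cre-, and its cells were B220+ splenocytes sorted by flow cytometry. The Crebbp-/- group was labelled CBPfl/fl:Mx-Cre+, and its material was bulk spleen with LPD. Both groups were immunoprecipitated with the same rabbit antibody product to H3K56ac. Mx-Cre is driven by the interferon-inducible Mx1 promoter, which is active in blood cells and in other tissues, so deletion is not limited to B cells. Ages, sexes and the time from deletion to disease are not given in the sources used here. The groups differed in genotype, disease and sorting together, and these cannot be told apart. Nothing in the labels says that replicates came from separate animals, so p-values measure the spread between these lists, which may be technical.

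Lysine 56 lies in the globular core of histone H3, close to where DNA enters and leaves the nucleosome. In mammals it can be acetylated by CBP, the product of Crebbp, and by its relative p300, with the histone chaperone ASF1 presenting the histone. Sirtuins and class I histone deacetylases can remove the mark. CBP also acetylates H3K27 and H3K18, marks of active promoters and enhancers, and is a coactivator for CREB and many other transcription factors. Crebbp is among the genes often mutated in human B cell lymphoma.

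The DNA under some of these gains and losses is shown first, because the classes differed at gene starts. The promoters below are RefSeq sequences (build GRCm38.p6, the build named mm10 in the submitters' processing notes), 5′ to 3′ on the gene's strand, from 250 bases before to 50 after the gene start. Capitals mark matches to any of 6 short motifs: TGACGTCA (the cAMP response element, CRE, bound by CREB), TGANTCA (AP-1), ATTTGCAT (the octamer), CCAAT (the NF-Y box), GGAAGT (an ETS core) and CACGTG (an E-box). Both strands were searched, and these promoters were chosen after their values were seen. Cd22 encodes an inhibitory co-receptor of B cells (chr7:30878979-30879278, minus strand), Trp53 the tumour suppressor p53 (chr11:69580109-69580408, plus strand) and Racgap1 a protein needed for cytokinesis (chr15:99651607-99651906, minus strand), and these 3 promoters lay in gained regions.
Cd22: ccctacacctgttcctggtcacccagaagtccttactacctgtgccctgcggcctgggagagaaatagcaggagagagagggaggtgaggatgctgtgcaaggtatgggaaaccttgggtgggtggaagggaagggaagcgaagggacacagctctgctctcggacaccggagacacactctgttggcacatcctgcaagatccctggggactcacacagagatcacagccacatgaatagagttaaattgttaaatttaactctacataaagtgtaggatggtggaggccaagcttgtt
Trp53: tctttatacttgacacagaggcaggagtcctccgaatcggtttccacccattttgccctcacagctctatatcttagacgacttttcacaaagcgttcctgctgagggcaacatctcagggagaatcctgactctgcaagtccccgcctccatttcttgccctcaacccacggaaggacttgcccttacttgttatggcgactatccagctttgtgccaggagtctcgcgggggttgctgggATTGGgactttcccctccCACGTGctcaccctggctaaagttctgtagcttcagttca
Racgap1: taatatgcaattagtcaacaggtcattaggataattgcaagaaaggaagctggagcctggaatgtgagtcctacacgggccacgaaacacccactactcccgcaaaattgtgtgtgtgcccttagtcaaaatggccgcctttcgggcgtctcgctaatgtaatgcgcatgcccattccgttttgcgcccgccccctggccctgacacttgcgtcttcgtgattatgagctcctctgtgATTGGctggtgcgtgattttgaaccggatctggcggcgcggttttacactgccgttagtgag
In the Cd22 window, H3K56ac peaks covered 0 of 300 bases in each B cell list, and 171 and 300 bases in the LPD lists. The Trp53 window had 0 and 0 bases in B cells, and 236 and 300 in LPD. The Racgap1 window had 0 and 0 bases in B cells, and 161 and 146 in LPD. The Cd22 window held none of the 6 motifs and 4 CpG dinucleotides. The Trp53 window held 1 NF-Y box, 1 E-box and 10 CpG.

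Lost promoters are shown for Stat4, a transcription factor of cytokine signalling (chr1:52007990-52008289, plus strand), and Arl4c, a small GTPase (chr1:88702142-88702441, minus strand).
Stat4: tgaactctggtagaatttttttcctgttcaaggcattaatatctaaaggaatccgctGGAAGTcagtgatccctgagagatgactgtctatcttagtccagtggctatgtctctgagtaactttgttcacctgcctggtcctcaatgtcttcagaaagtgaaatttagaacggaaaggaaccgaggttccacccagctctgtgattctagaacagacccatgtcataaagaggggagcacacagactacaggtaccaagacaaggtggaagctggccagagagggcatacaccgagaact
Arl4c: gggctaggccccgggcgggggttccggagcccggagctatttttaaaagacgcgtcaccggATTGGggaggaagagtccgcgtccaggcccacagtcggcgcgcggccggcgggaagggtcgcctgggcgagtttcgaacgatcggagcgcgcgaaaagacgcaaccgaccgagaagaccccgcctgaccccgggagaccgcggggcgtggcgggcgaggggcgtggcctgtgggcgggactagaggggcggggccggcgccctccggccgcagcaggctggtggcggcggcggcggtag
In the Stat4 window, peaks covered 237 and 178 bases in B cells and 0 in each LPD list. In the Arl4c window they covered 300 and 278 bases in B cells and 0 in each LPD list. Kept promoters with a CRE are shown for Jak1, a kinase of cytokine receptors (chr4:101265174-101265473, minus strand), and Dusp1, an immediate early phosphatase (chr17:26508423-26508722, minus strand).
Jak1: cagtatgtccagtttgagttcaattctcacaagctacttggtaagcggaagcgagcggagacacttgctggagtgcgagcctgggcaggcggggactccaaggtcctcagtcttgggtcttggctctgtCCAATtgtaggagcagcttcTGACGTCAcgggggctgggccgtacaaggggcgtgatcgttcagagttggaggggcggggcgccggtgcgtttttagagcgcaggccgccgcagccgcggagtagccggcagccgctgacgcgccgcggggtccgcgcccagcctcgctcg
Dusp1: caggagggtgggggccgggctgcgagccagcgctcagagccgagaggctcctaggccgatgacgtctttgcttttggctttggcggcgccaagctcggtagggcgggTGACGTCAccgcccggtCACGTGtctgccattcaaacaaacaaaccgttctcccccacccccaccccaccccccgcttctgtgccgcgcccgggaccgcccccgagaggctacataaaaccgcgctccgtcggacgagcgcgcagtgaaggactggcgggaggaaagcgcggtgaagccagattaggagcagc
In the Jak1 window, peaks covered 264 bases in the second B cell list, fewer in the first, and 300 in each LPD list. In the Dusp1 window, they covered 145 and 182 bases in B cells and 300 in each LPD list. Each of these windows held 1 CRE.

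The LPD lists were longer than the B cell lists. B cells had 20392 and 18763 peaks over 10.57 and 9.44 Mb, and LPD had 28222 and 28934 peaks over 17.04 and 18.29 Mb. The groups did not overlap in either measure, but 2 lists against 2 cannot go below p = 0.33 in an exact two-sided permutation test, and both tests gave that value. Peaks of 2 kb or more numbered 77 and 53 in B cells, against 534 and 701 in LPD. Shared bases made up 65.0% of the union of the B cell lists and 72.3% of the union of the LPD lists, against 39.8 to 43.5% between groups. The files hold positions only, so read depth is unknown and was not separated from the amount of H3K56ac. Counts of gains and losses are therefore given as they stand and, where a fit allowed it, with the lists scaled to equal length.

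Most of the B cell pattern was present in LPD, and the LPD lists as deposited added to it. With each list cut to an equal number of peaks, keeping the widest, 3821 of 26181 regions were gained, 2475 lost and 10293 kept. As deposited, of 14269 regions with a peak in both B cell lists, 10.2% were lost and 85.0% were kept. Of 22726 regions with a peak in both LPD lists, 36.0% were gained and 53.4% were kept. Regions in the kept class covered 8.28 Mb in the mean B cell list and 11.1 Mb in the mean LPD list. Gained regions added 4.16 Mb, and lost regions had held 0.606 Mb in B cells. Gained and lost regions were narrow, with median widths of 477 and 432 bp, against 862 bp for kept regions. Between the classes lay near misses: 1591 regions had a peak in both LPD lists and only the first B cell list, 827 in both LPD lists and only the second, 2571 in the first LPD list alone and 3690 in the second alone.

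Gains and losses lay mostly away from gene starts, whereas kept regions lay mostly at them. A gene start was within 1 kb of 69.7% of kept regions, 22.3% of gained regions and 18.5% of lost regions. Inside genes but away from their starts lay 50.5% of gained, 44.3% of lost and 16.7% of kept regions. Beyond 50 kb from any coding gene lay 7.03% of gained and 11.1% of lost regions. Seen from the B cell lists, loss was rarest at gene starts, where 3.001% of the regions with a peak in both lists were lost. The same share was 22.1% inside genes, 20.8% within 50 kb of a gene and 28.1% farther away. Regions are not replicates, so these shares are descriptions.

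**Figure D1:**
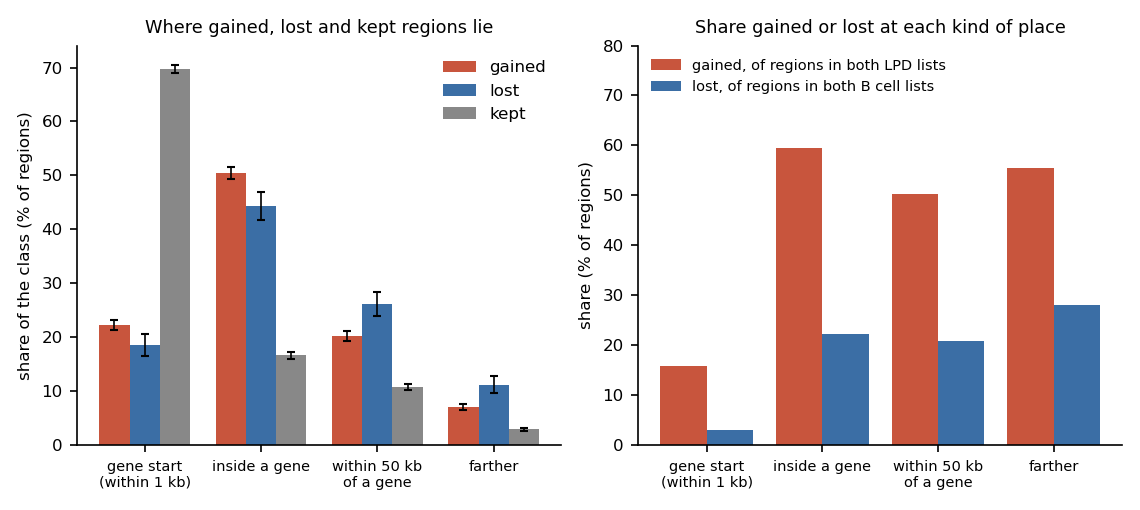
Left, share of gained, lost and kept H3K56ac regions (y axis, % of the class) by place relative to protein-coding genes, with exact 95% binomial intervals that cover counting error only. Right, share of regions in both lists of a group that were gained or lost at each place (y axis, %); kept regions were at gene starts in 69.7%, and loss was lowest there, at 3.001%.

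Acetylation of the other group near gained and lost regions was also measured. A peak of either B cell list lay within 5 kb of 43.3% of gained regions, at a median distance of 7.67 kb. For lost regions, a peak of either LPD list lay within 5 kb in 40.3%, at a median of 9.62 kb. Gained regions also lay in series: with gaps of up to 10 kb, 185 runs held 5 or more gained regions, which were 15.1% of all gained regions. Lost regions formed 4 such runs, with 1.79% of lost regions. Gained regions were more numerous, at 8183 against 1453, and the part of this number in the runs was not tested. With peaks up to 500 bp apart merged, 4999 regions were gained and 1048 lost, and runs were not counted there. The run with the most gained regions held 20 over 47.9 kb at Grb2, which encodes an adaptor of receptor signalling (chr11:115669075-115716978). The run with the most lost regions held 9 over 22.3 kb near Mdm1 (chr10:118081880-118104218).

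Chromosomes 15 and 17 stood apart in LPD. On chromosome 15, 36.5% of regions were gained and 1.54% lost, and on chromosome 17, 34.9% were gained and 1.43% lost. On the other chromosomes together, 22.1% were gained and 4.58% lost. Chromosome 15 held 4.33 and 4.41% of the covered length of the B cell lists, and 7.06 and 6.95% of the LPD lists. Chromosome 17 held 5.04 and 5.10% in B cells, and 7.51 and 7.30% in LPD. The LPD lists were above the B cell lists on both chromosomes, by more than the spread within either group.

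The differences were 0.68 (SE 0.013) for chromosome 15 and 0.55 (SE 0.013) for chromosome 17 on the log2 scale of the share, with adjusted p of 1.27e-26 and 5.46e-24 in limma. Adjusted p ranged up to 0.0033 when 1 list was left out. This fit called 16 of 20 chromosomes (80%), 4 of them higher, and shares sum to the whole, so a rise on one chromosome lowers the others. Among the other 18 chromosomes the differences ran from -0.28 on chromosome 18 to 0.19 on the X chromosome. The excess ran along both chromosomes. In windows of 5 Mb with at least 20 regions, the LPD to B cell ratio of covered length was above the genome ratio of 1.77 in 17 of 17 windows on chromosome 17 and 13 of 16 on chromosome 15. On the other chromosomes together it was above in 135 of 373 windows (36.2%), and on the X chromosome in 10 of 10.

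The other acetylation marks of the same groups showed the same 2 chromosomes. For H3K27ac, chromosome 15 held 4.39 and 4.36% of the B cell lists and 5.80 and 6.54% of the LPD lists, a difference of 0.49 (SE 0.066, limma adjusted p = 0.0081). For H3K18ac it held 4.44 and 4.37% in B cells and 6.36 and 7.46% in LPD, a difference of 0.64 (SE 0.087, limma adjusted p = 0.0096). On chromosome 17 the differences were 0.37 for H3K27ac (SE 0.055, limma adjusted p = 0.0081) and 0.44 for H3K18ac (SE 0.066, limma adjusted p = 0.0096). The X chromosome differed by 0.19 for H3K56ac, -0.30 for H3K27ac and -0.38 for H3K18ac. The copy number of these chromosomes was not measured here, and its part in these values was not tested. Without chromosomes 15 and 17, 6716 of 30403 regions were gained and 1392 were lost.

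**Figure D2:**
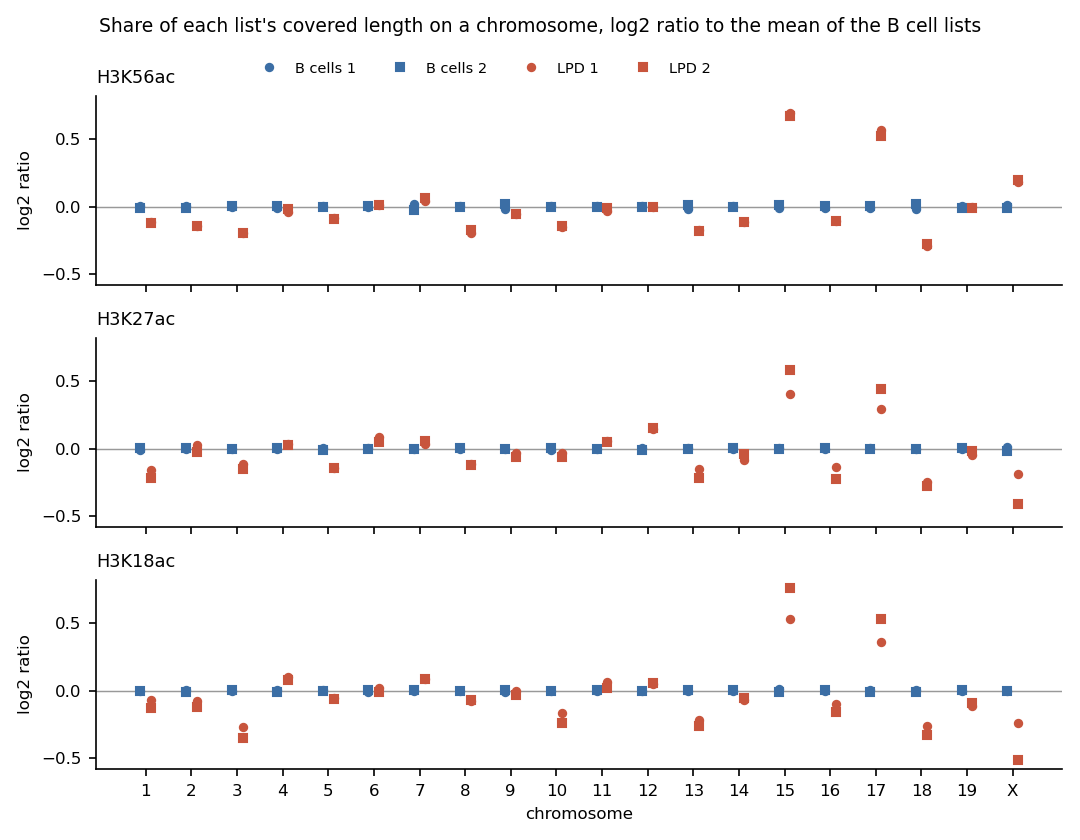
Share of each list's covered length on each chromosome (x axis), as the log2 ratio to the mean of the B cell lists (y axis), for H3K56ac, H3K27ac and H3K18ac; points are single lists. LPD lists stand highest on chromosomes 15 and 17 in all 3 marks, with mean H3K56ac differences of 0.68 and 0.55.

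How H3K56ac differed gene by gene was tested on the summed peak length of the regions assigned to each gene, as log2(kb + 0.2), which understates changes of short lengths. A region belonged to each protein-coding gene it overlapped (span widened by 1 kb), or else to the nearest within 50 kb. Of 11817 genes with a region, 10041 had at least 0.4 kb in 2 lists and were tested with limma at an adjusted p of 0.05. H3K56ac was longer in LPD at 4145 genes (41.3%) and shorter at 349 (3.48%), with a median difference over all genes tested of 0.49. With the lists scaled to equal length, 1637 genes (16.3%) were longer and 2360 (23.5%) shorter, and the median was -0.16. The share of calls that were longer went from 92.2 to 41.0%. All 1637 genes that were longer after scaling were among the 4145, and all 349 shorter genes stayed shorter, while 43 genes went from longer to shorter. Fewer genes were called with 1 LPD list left out: 750 longer and 116 shorter without the first, and 495 and 116 without the second. The spread between lists then came from the B cell lists alone, and the lone LPD list was assumed to vary like them. Among the 17 named genes that lost a call in this way, the log2 difference moved by 0.01 to 0.19 and kept its sign. Of the 4145 longer genes, 582 were at 0 in both B cell lists. All 582 genes tested with such values were called longer, and all 116 tested with 0 in both LPD lists were called shorter. Without the first or second B cell list, 155 and 190 genes were shorter.

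Calls were more frequent on the 2 chromosomes that stood apart. These chromosomes were picked by the same peak lengths that the gene values sum. Higher shares there follow from that choice and are a description, not a further result. On chromosomes 15 and 17, 749 of 1011 tested genes (74.1%) were longer, against 3396 of 9030 (37.6%) elsewhere. After scaling the shares were 38.5 and 13.8%. Medians before scaling were 1.09 and 0.44. Of the 100 genes with the most gained sequence, 31 lay on these chromosomes, as did 9.66% of all genes with a region.

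Crebbp and its relative Ep300 are the enzymes' own genes. At Crebbp (chromosome 16), H3K56ac covered 0.725 and 0.599 kb in the B cell lists and 1.64 and 1.69 kb in the LPD lists. The difference was 1.12 (SE 0.12, limma adjusted p = 0.0062), and 0.46 after scaling. Without the first or second LPD list the difference was 1.14 or 1.10, no longer called (limma adjusted p = 0.052 and 0.059). Acetylation over the gene does not check its deletion, since the deleted part is not stated in the sources used here. At Ep300 (chromosome 15), H3K56ac covered 1.75 and 1.75 kb in the B cell lists and 3.29 and 3.69 kb in the LPD lists. The difference of 0.92 (SE 0.093, limma adjusted p = 0.0051) was 0.19 after scaling and was then not called, nor was it without the second LPD list.

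Gained sequence chose the next genes, so their values are a description. Rftn1, which encodes the lipid raft protein raftlin, had 9.26 and 7.15 kb in the B cell lists and 49.0 and 50.5 kb in the LPD lists, and gained 33 regions. Zbtb20, a transcriptional repressor of the BTB zinc finger family, had 1.54 and 1.49 kb in the B cell lists and 24.8 and 26.4 kb in the LPD lists, with 24 gained regions. Grb2 had 2.891 and 3.498 kb in the B cell lists and 26.9 and 30.5 kb in the LPD lists. In these 3 genes each LPD list was several times longer than each B cell list.

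Ezr encodes ezrin, which links the cell cortex to the membrane, and it had 6.41 and 6.19 kb in the B cell lists and 32.5 and 31.2 kb in the LPD lists. Its gained sequence included the widest gained region of all, 5422 bp inside the gene (chr17:6754928-6760349). Sik1, a CREB target gene whose kinase restrains CREB coactivators, had 3.56 and 3.80 kb in the B cell lists and 23.2 and 23.9 kb in the LPD lists. Sh3bp5, an inhibitor of the kinase BTK, had 5.155 and 4.497 kb in the B cell lists and 31.2 and 33.4 kb in the LPD lists. Prkce, a protein kinase C gene, had 9.95 and 8.93 kb in the B cell lists and 37.2 and 37.6 kb in the LPD lists. Of the 12 leading genes, Rftn1, Ezr, Sik1 and Prkce lie on chromosome 17. Nfatc1, a calcium-regulated transcription factor downstream of the antigen receptor, went from 10.7 and 9.75 kb to 46.9 and 50.6 kb.

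Nrp2 and Wipf3 were listed at 0 in both B cell lists. Nrp2, a co-receptor for semaphorins, had 12.4 and 13.0 kb in LPD over 21 gained regions. Wipf3, a regulator of actin assembly, had 11.7 and 11.9 kb in LPD over 11 gained regions, the widest of them at its start. In all, 995 genes had no H3K56ac in either B cell list and some in both LPD lists, and 239 had the reverse. Among the former with at least 2 kb in both LPD lists, the largest differences after those 2 were at Il10, Grk3, Klf12, Racgap1, Gpr55, Tmem51, H2-T24 and Olfr164. Il10, the gene of an anti-inflammatory cytokine that some B cells make, had 7.96 and 7.85 kb in LPD. Grk3, a kinase that desensitizes G protein-coupled receptors, had 7.83 and 7.97 kb. Racgap1 on chromosome 15 had 7.28 and 6.67 kb. Genes at 0 in B cells failed the filter on low values when an LPD list was left out, so they could not be tested there.

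The other acetylation marks at these genes differed from gene to gene. At Rftn1, the H3K27ac length was 38.8 ± 1.44 kb for B cells against 61.3 ± 10.9 kb for LPD, and that of H3K18ac was 16.6 ± 1.30 against 79.4 ± 5.29 kb (SD, n = 2). At Grb2 the H3K27ac lengths were 28.1 ± 0.957 and 42.6 ± 9.91 kb. Wipf3 and Racgap1 were listed at 0 in both B cell lists of both other marks. Foxp1, a forkhead factor gene of B cell development, gained 35 H3K56ac regions and lost 3, from 25.5 and 23.0 kb in B cells to 56.7 and 64.3 kb in LPD. The H3K27ac length there was 109 ± 2.48 kb for B cells against 88.7 ± 24.6 kb for LPD (SD, n = 2), a difference within the spread of the LPD lists.

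**Figure D3:**
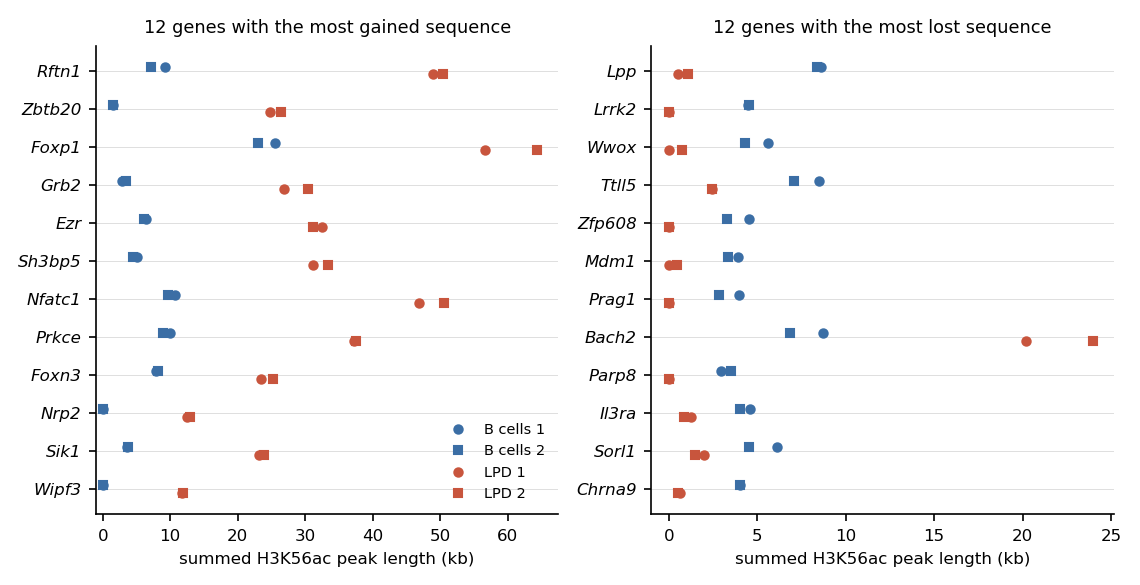
Summed H3K56ac peak length per gene (x axis, kb) in each of the 4 lists, for the 12 genes with the most gained and the 12 with the most lost sequence (y axis). LPD lists lie right of the B cell lists for all 12 gained genes, and left of them for 11 of the 12 lost genes, with Bach2 the exception.

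Losses were shorter than gains. Lost sequence or the size of the difference chose the genes named for loss, so their values and limma p-values are a description. Lpp, a gene of focal adhesions next to Bcl6, lost 8 regions and went from 8.57 and 8.37 kb in B cells to 0.516 and 1.07 kb in LPD. Lrrk2, which encodes a large kinase, had 4.47 and 4.5 kb in B cells and was listed at 0 in both LPD lists. Lrrk2 lies on chromosome 15, so loss occurred there too. Wwox, a gene that spans a fragile site, had 5.61 and 4.30 kb in the B cell lists and 0 and 0.734 kb in the LPD lists. Its difference was called (limma adjusted p = 0.034) but not after either B cell list was left out.

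Sorl1, a sorting receptor gene, went from 6.09 and 4.55 kb to 1.971 and 1.495 kb, with the call lost without the second LPD list. Il3ra, the receptor chain for interleukin 3, went from 4.59 and 4.03 kb to 1.22 and 0.835 kb. Zfp608, Prag1, Parp8, Dmrt1, Itga9 and Sh2d2a were listed at 0 in both LPD lists, with 2.06 to 4.55 kb in B cell lists. At these 6 genes H3K27ac in LPD was 0.83 kb or less in the mean.

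Bach2, a repressor that holds back plasma cell differentiation, was among the leading genes for loss and still had more H3K56ac in LPD. It lost 4 regions and gained 17, and went from 8.71 and 6.84 kb in B cells to 20.21 and 23.96 kb in LPD, a difference of 1.49 (SE 0.18, limma adjusted p = 0.0075) that was not called without the second LPD list. Over Bach2, the H3K27ac length was 53.9 ± 1.68 kb for B cells against 28.3 ± 9.99 kb for LPD, and that of H3K18ac was 13.4 ± 0.926 against 39.5 ± 10.1 kb (SD, n = 2). Gains and losses met in 290 genes in all. A gained region lay at 3967 genes (33.6% of genes with a region) and a lost region at 922 (7.8%).

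At gene starts, the widest gained region lay at Pik3r1, which encodes the regulatory subunit of PI3 kinase (chr13:101690776-101694771). Its peaks covered 0 bp in each B cell list, and 3932 and 3996 bp in LPD, although H3K27ac and H3K18ac had peaks there in all 4 lists of each mark. Adm, the gene of adrenomedullin, followed with 3314 and 3868 bp in LPD, and there both other marks were present in LPD lists only. Ptpn22, a phosphatase that limits antigen receptor signals, had 3410 and 3421 bp in LPD. Wide gained regions also lay in the immunoglobulin loci. A region in the heavy chain locus Igh (chr12:113362147-113366506) had 4266 and 4129 bp in LPD, and one in the lambda locus Igl over Iglc1 and Iglj1 (chr16:19059934-19063815) had 3646 and 3816 bp. Both were listed at 0 in B cells.

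Another gained region lay 48.7 kb from Myc within the lncRNA gene Pvt1 (chr15:62039108-62042756), with 3150 and 3609 bp in LPD. The widest lost region at a gene start was at Sh2d2a, a T cell adaptor gene (chr3:87845960-87848302), with 2343 and 2059 bp in B cells. Prob1 followed, with 1640 and 1943 bp in B cells, and then Parp8, Ccdc125, Ggt5, Arl4c, Prag1 and Stat4, at 881 to 1752 bp in B cell lists. H3K27ac had peaks in both B cell lists and neither LPD list at these starts, except at Prob1, where it had none in any list.

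Where all 4 lists had a peak, the question was whether its width differed. Of 12125 kept regions, 2640 (21.8%) were wider in LPD and 210 (1.73%) narrower by limma on log2(bp + 100), with a median difference of 0.27. With the lists scaled to equal length over these regions, 917 were wider and 728 narrower, with a median of -0.09. The 917 were all among the 2640, and the 210 were all still narrower. With 1 LPD list left out, limma called 0 wider and 0 narrower regions, and the smallest adjusted p was 0.103 without the first and 0.129 without the second. At an unadjusted p of 0.05, 2960 and 2484 were wider, and 400 and 454 narrower. The median differences were 0.27 and 0.22 in these fits, in which the spread came from the B cell lists alone. Without the first or second B cell list, 113 and 126 were narrower.

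Width difference chose the regions named next, wider and narrower, so their values and limma p-values are a description. The largest widening lay inside Sh3bp5, where a peak of 435 and 287 bp in B cells became one of 6361 and 6585 bp in LPD (chr14:31397408-31404012). The difference was 3.85 (SE 0.17, limma adjusted p = 0.0036), and 3.48 after scaling. Rbm47, an RNA-binding protein gene, had 428 and 237 bp in B cells and 5889 and 5982 bp in LPD (chr5:66077396-66083452). Map3k1, a kinase of stress signalling, had 431 and 213 bp and 5341 and 5395 bp. Zbtb18, a repressor gene, had 498 and 325 bp and 5534 and 5582 bp at its start.

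The 8 regions with the largest narrowing had 840 to 1801 bp in B cell lists. At Kcna3, a lymphocyte potassium channel gene, the start region had 1428 and 1486 bp in B cells and 318 and 314 bp in LPD, a difference of -1.90 (SE 0.11, limma adjusted p = 0.0046). A region 21.0 kb from Irf8, an interferon regulatory factor of germinal centre B cells, had 1458 and 1801 bp in B cells and 590 and 387 bp in LPD. The share of kept regions that were narrower was 0.851% at gene starts and 3.91% inside genes away from starts.

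The labelled cell types were checked against markers. The B cell markers Pax5, Ms4a1 and Cd79a had H3K56ac in all 4 lists. Cd3e and Cd8a of T cells, Ncr1 of NK cells, Lyz2, Mpo, S100a8 and Csf1r of myeloid cells and Gata1 of erythroid cells were at 0 in all 4. Other markers of those cells had H3K56ac in all 4 lists and did not pass the test. Lck of T cells had 2.56 and 2.15 kb in the B cell lists and 2.82 and 3.67 kb in the LPD lists. Adgre1 of macrophages had 1.57 and 1.22 kb and 1.73 and 1.96 kb, and Klf1 of erythroid cells 0.471 and 0.736 kb and 0.996 and 0.855 kb. Cd4 had 0.429 and 0.343 kb in LPD only, and Itgam 0.426 kb in the first LPD list only. The erythroid membrane gene Slc4a1 was listed at 0 in B cells and had 1.07 and 1.68 kb in LPD. Summed over 15 erythroid and megakaryocyte genes, H3K56ac was 1.07 and 1.74 kb in the B cell lists and 5.88 and 7.86 kb in the LPD lists, and 6 of the 15 were tested. The 3 called longer (Slc4a1, Gfi1b and Ank1) were at 0 in both B cell lists and were tested only because of the LPD lists.

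Over 20 myeloid genes the sums were 6.20 and 6.45 kb in the B cell lists and 13.9 and 13.1 kb in the LPD lists, and 9 of the 20 had a region. Of 7 tested, 6 were longer, and 3 after scaling, with 0 to 6 when a list was left out. Fcgr3 and Csf3r among the 6 were at 0 in both B cell lists. Fcgr3, an Fc receptor gene, had 1.21 and 1.09 kb in the LPD lists. Over 21 T and NK genes the sums overlapped, at 8.82 and 8.29 kb in the B cell lists and 8.19 and 10.1 kb in the LPD lists. There Il2rb on chromosome 15 was longer. Cd3d was shorter, at 1.67 and 1.57 kb against 1.08 and 0.79 kb, and was not called with any 1 of the 4 lists left out. LPD was unsorted spleen, so more cells of another type and more H3K56ac per cell cannot be told apart, and the part of these cells in the other results was not tested.

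Gene groups were described by their members' calls beside the 41.3% of all tested genes that were longer, and their medians beside 0.49. Shorter counts stand beside 3.48% of all tested genes. Counts after scaling stand beside 16.3% longer and 23.5% shorter of all tested genes. The lists were drawn up with earlier results of these data known, so a count describes the list and supports nothing beyond it. Members at 0 in both B cell lists entered the test through the LPD lists alone. Members named below were mostly chosen by gained or lost sequence, or after their values were seen. Their values and limma p-values are a description. In B cell identity, 17 of 23 tested genes were longer and 2 shorter, of 24 genes, with a median of 1.14, and 11 and 3 after scaling. Left-out lists gave 5 to 19 longer. Cd22 went from 0 and 0 kb to 4.80 and 5.93 kb. The octamer factor gene Pou2f2 went from 0.2 and 0 kb to 3.66 and 4.07 kb, and the CD20 gene Ms4a1 from 0.438 and 0.312 kb to 3.38 and 3.41 kb.

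Ebf1 and Pax5, the factors that set B cell identity, showed smaller differences that depended on scaling. Ebf1 had 11.5 and 10.9 kb in the B cell lists and 16.5 and 17.4 kb in the LPD lists, a difference of 0.59 as deposited and -0.19 after scaling. Pax5 had 7.195 and 7.932 kb in the B cell lists and 12.1 and 12.6 kb in the LPD lists, with 0.70 and -0.08. Both calls were lost without either LPD list. The 2 shorter genes were Cr2, the complement receptor of marginal zone and follicular B cells, and Cd72, an inhibitory co-receptor. Cr2 had 1.52 and 1.61 kb in B cells and 0.322 kb in each LPD list. Cd72 went from 2.34 and 2.06 kb to 0.745 and 0.998 kb, and its call was lost without the first LPD list. Both were shorter after scaling too. When only regions within the widened gene spans were counted, no gene of this list was called shorter.

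In B cell receptor signalling, 12 of 23 tested genes were longer and 1 shorter, with a median of 0.86, and 5 and 5 after scaling. Left-out lists gave 2 to 16 longer. Grb2, Nfatc1 and Cd22 were among the longer genes. Cd22 and another longer gene are counted both here and in B cell identity. The shorter gene was Plcg2, which encodes the phospholipase that carries the receptor's calcium signal. It had 2.78 and 2.43 kb in the B cell lists and 0.265 and 0 kb in the LPD lists. Lyn, a kinase of the same pathway, lost 4 regions but its total did not pass the test, at 6.18 and 5.48 kb in the B cell lists and 4.77 and 4.95 kb in the LPD lists, and it was shorter after scaling.

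In early B cell development only 4 of 15 genes were tested, and 7 were at 0 in all lists. Ikzf1, the gene of Ikaros, gained 14 regions and went from 7.24 and 6.70 kb to 23.6 and 24.3 kb, a difference of 1.75 (SE 0.10, limma adjusted p = 0.0017). Cd93, a marker of immature B cells, went from 1.46 and 1.29 kb to 0 in both LPD lists over 3 lost regions.

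In MHC class II presentation, 8 of 15 genes were longer and 0 shorter, with a median of 0.96, and 3 and 3 after scaling. Left-out lists gave 1 to 11 longer. Of the 15 genes, 8 lie on chromosome 17, where H3K56ac was longer in LPD along the whole chromosome, and of the 7 elsewhere 4 were longer. Ciita, on chromosome 16, encodes the coactivator that switches class II genes on. It went from 0.325 and 0.697 kb to 2.71 and 3.34 kb and was called in both scalings, but not without either LPD list. H2-Aa, a class II chain gene with a broad H3K56ac domain, had 14.9 and 14.7 kb in the B cell lists and 16.0 and 16.4 kb in the LPD lists, a difference of 0.13 that was not called and was -0.65 and shorter after scaling. Cd74, the invariant chain gene, had 6.10 and 5.34 kb and 6.27 and 5.94 kb, and was likewise shorter after scaling, at -0.67.

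Germinal centre genes moved in both directions, with 3 longer and 2 shorter of 10 tested, and 2 and 2 after scaling. The shorter genes were Bcl6, the repressor that germinal centre B cells depend on, and Irf8. Irf8 had 7.64 and 7.84 kb in the B cell lists and 2.26 and 2.35 kb in the LPD lists, a difference of -1.67 (SE 0.077, limma adjusted p = 0.0013). Bcl6 had 1.88 and 1.79 kb in the B cell lists and 0.980 and 1.14 kb in the LPD lists, with the call lost without either LPD list. The 3 longer genes were Gna13, Bach2 and Mef2b, with Mef2b not called after scaling or without either LPD list. Gna13, which encodes a G protein that confines germinal centre B cells, went from 3.619 and 3.497 kb to 9.34 and 10.1 kb.

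Among plasma cell genes, 4 of 8 tested were longer and 0 shorter, with 4 and 0 after scaling, and 2 to 5 longer with a list left out. Irf4, the factor that drives plasma cell differentiation, had 5.08 and 5.34 kb in the B cell lists and 12.8 and 13.8 kb in the LPD lists over 9 gained regions. Creld2, Edem1 and Sec11c, genes of protein folding and secretion, were the others. Creld2 lies on chromosome 15, and Edem1 was not called without the second LPD list. Prdm1, the Blimp-1 gene, had 0.654 and 0.440 kb and 0.740 and 0.918 kb, which passed the test only without the first B cell list.

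In the list of lymphoma oncogenes and suppressors, 14 of 24 tested genes were longer and 1 shorter, with a median of 1.005, and 8 and 3 after scaling. Left-out lists gave 5 to 16 longer. Myc had 2.85 and 2.14 kb in the B cell lists and 9.69 and 11.5 kb in the LPD lists. Ccnd2, a cyclin of the G1 phase, went from 0.840 and 0.481 kb to 4.85 and 6.02 kb. Pim1, a survival kinase gene, went from 0.707 and 1.41 kb to 7.40 and 8.66 kb, with the call lost without the second LPD list. Mcl1, which blocks apoptosis, went from 4.29 and 4.59 kb to 10.04 and 10.31 kb and was not called after scaling. Myc lies on chromosome 15 and Pim1 on chromosome 17.

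Cell division genes were longer at 12 of 19 tested and shorter at none, of 24 genes. Of the 12, 5 were at 0 in both B cell lists (Mki67, Ccnb1, Ccnb2, Top2a and Cdc20) and were tested only because of the LPD lists. After scaling 8 were longer and 2 shorter, and left-out lists gave 2 to 11 longer. None of the 24 lies on chromosome 15 or 17. Mki67, the Ki-67 gene, had 0 and 0 kb in the B cell lists and 3.23 and 2.55 kb in the LPD lists. E2f2, an S phase transcription factor gene, went from 0.644 and 0.691 kb to 4.46 and 4.75 kb, and Kif11, a spindle motor gene, from 1.38 and 1.29 kb to 4.99 and 5.07 kb. Ccnb1, the cyclin B1 gene, was listed at 0 in B cells and had 0.755 and 0.788 kb in LPD. The replication genes Mcm2, Mcm3 and Mcm5 did not pass the test as deposited, at 0.342 to 0.884 kb in every list, and Mcm2 was shorter after scaling. Another replication gene of the list was called longer as deposited, but not after scaling.

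Among genes of DNA damage and p53, 13 of 24 tested were longer and 1 shorter, with 6 and 3 after scaling and a median of 0.57. Left-out lists gave 2 to 14 longer. Trp53 went from 0.241 and 0.257 kb in B cells to 2.73 and 2.89 kb in LPD. Bbc3, the gene of the pro-apoptotic p53 target PUMA, went from 0.832 and 0.743 kb to 4.03 and 4.68 kb, a difference of 2.20 (SE 0.12, limma adjusted p = 0.0015). Cdkn1a, the p21 gene on chromosome 17, went from 1.04 and 1.04 kb to 3.22 and 3.30 kb. The shorter gene was Gadd45a, a stress response gene with 1.53 and 1.08 kb in the B cell lists and 0.276 and 0.253 kb in the LPD lists, whose call was lost without either LPD list.

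The genes that write, remove or escort H3K56ac itself had a median close to that of all genes tested. In that list 5 of 18 tested genes were longer and 0 shorter, with a median of 0.51, and 1 longer and 4 shorter after scaling. Left-out lists gave 0 to 9 longer. Asf1a had 1.19 and 0.965 kb in the B cell lists and 1.53 and 1.65 kb in the LPD lists, and Hdac1 had 2.28 and 2.31 kb and 2.47 and 2.78 kb. Neither passed the test as deposited. Asf1a missed the threshold narrowly (limma adjusted p = 0.0501) and was called longer with lists of equal peak number, with a pseudocount of 1 kb, with gene spans only and without the first B cell list. Hdac1 was shorter after scaling. Hira, a chaperone for histone H3.3, was longer, from 0.894 and 0.269 kb to 2.25 and 2.38 kb, but not without either LPD list or after scaling.

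Among chromatin regulators mutated in lymphoma, 9 of 15 genes were longer and 0 shorter, with 4 and 3 after scaling, a median of 0.73, and 3 to 11 longer with a list left out. Kmt2d, an H3K4 methyltransferase gene, had 1.82 and 1.65 kb in the B cell lists and 4.87 and 5.07 kb in the LPD lists. Hdac7 had 1.32 and 1.04 kb and 5.67 and 6.05 kb. Both lie on chromosome 15. Bcor, a corepressor of BCL6, lies on the X chromosome and went from 0.255 and 0.371 kb to 2.33 and 2.97 kb.

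In the NF-kB pathway, 9 of 18 genes were longer and 1 shorter, with 4 and 5 after scaling, a median of 0.55, and 2 to 11 longer with a list left out. The inhibitor genes Nfkbia and Nfkbie (the latter on chromosome 17) were longer and the subunit gene Nfkb1 was shorter. Nfkbia went from 0.789 and 1.22 kb to 4.38 and 5.41 kb, with the call lost without the second LPD list. Nfkb1 went from 6.31 and 5.43 kb to 3.68 and 3.09 kb over 3 lost regions, with the call lost without either LPD list. Tnfrsf13c, the receptor for the B cell survival factor BAFF, lies on chromosome 15 and went from 1.01 and 1.07 kb to 4.33 and 5.24 kb.

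Genes of the cAMP response and immediate early genes, many of them CREB targets, had a median of 0.30. Of 20 tested, 7 were longer and 1 shorter, and after scaling 2 were longer and 11 shorter. Left-out lists gave 1 to 7 longer. Fos had 6.99 and 6.60 kb in the B cell lists and 7.43 and 7.42 kb in the LPD lists, Egr1 2.57 and 2.81 kb and 2 and 2.77 kb, and Nr4a1 5.90 and 4.99 kb and 6.75 and 7.68 kb. None of these 3 passed the test as deposited, and all 3 were shorter after scaling, although Nr4a1 was called longer without the first B cell list. Sik1, on chromosome 17, was longer in both scalings with 17 gained regions. The shorter gene was Pde4d, a phosphodiesterase that breaks down cAMP, with 1.76 and 1.23 kb in the B cell lists and 0 and 0.205 kb in the LPD lists.

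Chemokine receptor and homing genes were longer at 8 of 12 tested and shorter at none, with 8 and 4 after scaling, a median of 1.57, and 6 to 10 longer with a list left out. Cd44, the hyaluronan receptor gene, gained 15 regions and went from 3.54 and 3.07 kb to 14.5 and 12.8 kb. S1pr1, a receptor for exit from lymphoid organs, went from 3.694 and 4.002 kb to 12.7 and 13.5 kb. Cxcr5, the receptor for follicle entry, went from 3.76 and 4.08 kb to 9.65 and 10.8 kb. Ccr9, a receptor for homing to the gut, went from 0.817 and 0.834 kb to 5.20 and 5.82 kb. Cxcr4, Ccr6, Ccr7 and Klf2 did not pass the test as deposited and were shorter after scaling, although Ccr7 and Cxcr4 were called longer without the first B cell list.

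Interferon and IRF genes were longer at 9 of 16 tested and shorter at none, with a median of 0.75, 3 and 0 after scaling, and 0 to 14 longer with a list left out. Stem and progenitor genes had 2 longer and 0 shorter of 5 tested, with 0 and 3 after scaling. Ribosomal protein genes, which are active in all cells, were longer at 14 of 20 and shorter at none, with a median of 0.60, 5 and 4 after scaling, and 1 to 13 longer with a list left out. Of 15 genes not used in blood, 14 were at 0 in all lists, and Gfap had 0.228 and 0.264 kb in LPD.

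**Figure D4:**
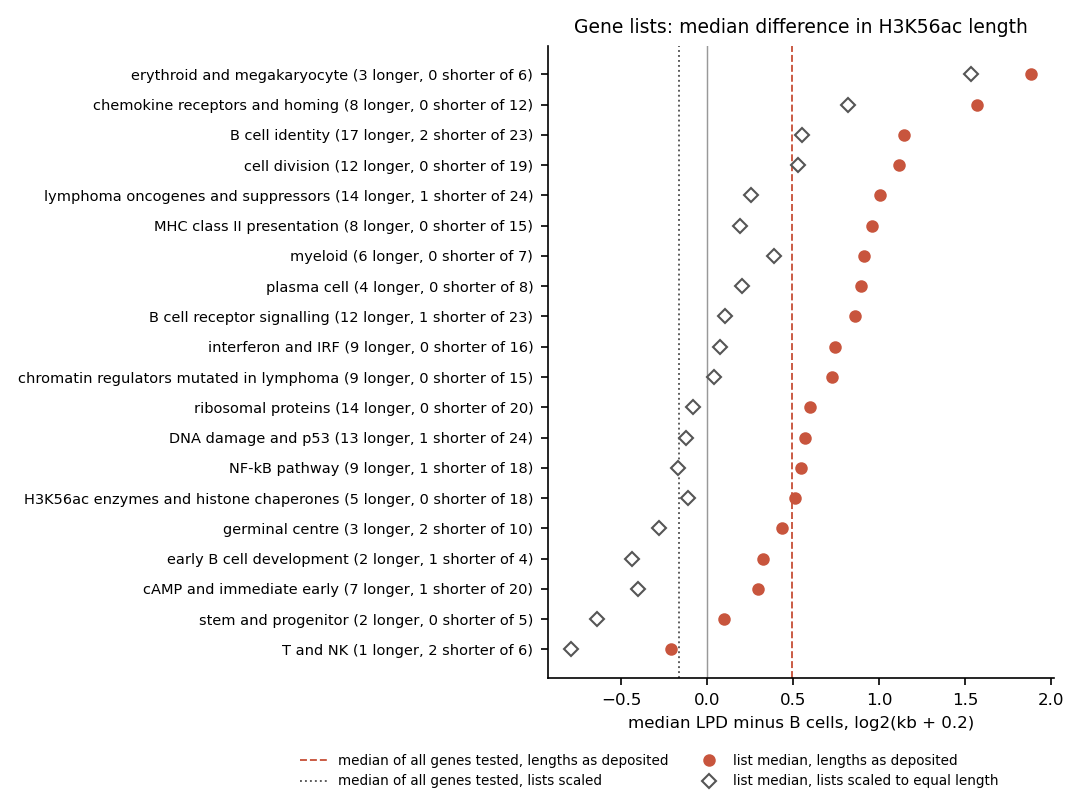
Median difference in H3K56ac length over the tested genes of each list (x axis, LPD minus B cells, log2(kb + 0.2)), with lengths as deposited (filled circles) and with lists scaled to equal length (open diamonds); lines mark the medians of all genes tested, 0.49 and -0.16. Labels give the counts called longer and shorter as deposited, and all medians move left by scaling.

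H3K27ac and H3K18ac, which the classes did not use, differed at gained and lost regions in the same direction as H3K56ac. At gained regions, an H3K27ac peak was present in 43.0 and 42.1% in the B cell lists and 93.0 and 80.5% in the LPD lists. H3K18ac was present in 17.9 and 19.5% in B cells and 94.5 and 85.3% in LPD. At lost regions, H3K27ac went from 90.7 and 89.1% to 24.4 and 9.98%, and H3K18ac from 78.7 and 80.1% to 45.4 and 30.4%. The lists did not overlap between groups in any of these 4 comparisons. At kept regions H3K27ac was present in 98.99 and 98.68% in B cells and 98.67 and 96.23% in LPD. H3K18ac was present there in 90.01 and 90.99% in B cells and 98.82 and 96.24% in LPD. The lists did not overlap at kept regions either, so the lack of overlap alone does not set gained and lost regions apart. The differences between groups were smaller at kept regions.

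The other marks differed from each other in the shares that follow. Depth is unknown for their lists too, and the part of list size in these shares was not tested. Of gained regions, 34.4% had H3K27ac in all 4 lists, against 13.1% with H3K18ac in all 4. H3K18ac was limited to both LPD lists in 62.7% of gained regions, and H3K27ac in 39.4%. Of lost regions, 63.2% had H3K27ac in both B cell lists only, against 33.2% for H3K18ac, and H3K18ac stayed in all 4 lists at 25.5%. Neither other mark had any peak at 1.20% of gained and 4.27% of lost regions. Gained regions at gene starts more often had H3K27ac in B cells already, at 57.9 and 55.7%, than those away from starts, at 38.8 and 38.2%.

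A single list of CBP peaks in wild-type B cells overlapped 5.55% of kept regions, 1.996% of lost regions and 0.477% of gained regions. Away from gene starts the shares were 8.04, 2.28 and 0.330%. Kept regions were also the widest, and the part of width in these shares was not tested. CBP in LPD was not analysed here.

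**Figure D5:**
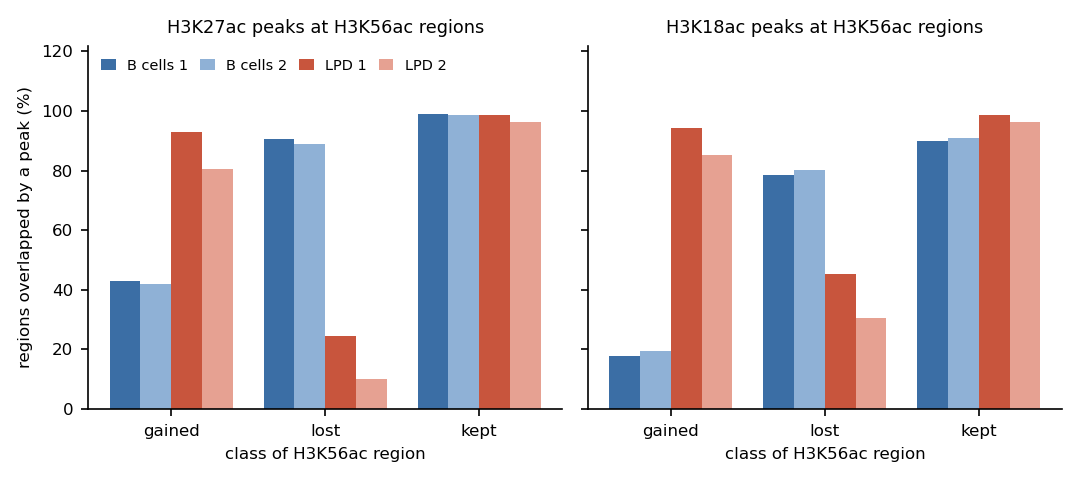
Share of gained, lost and kept H3K56ac regions (x axis) overlapped by an H3K27ac peak (left) or H3K18ac peak (right) in each list (y axis, %). At gained regions H3K18ac peaks are in 17.9 and 19.5% for B cells and 94.5 and 85.3% for LPD; kept regions are high in every list.

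Promoter sequence was described for 21263 RefSeq promoters, of which 953 lay in gained, 145 in lost and 5401 in kept regions, and 12621 in none. The CRE occurred in 5.13% of kept, 0.839% of gained and 2.07% of lost promoters, and in 2.23% of all promoters. The ETS core occurred in 34.6% of kept, 23.0% of gained and 26.2% of lost promoters, against 24.8% of all. The NF-Y box was in 35.8% of kept, 35.9% of gained and 38.6% of lost promoters, against 38.2% of all. The AP-1 motif was in 3.89% of kept, 2.62% of gained and 0.690% of lost promoters, against 6.99% of all. The E-box was in 12.1% of kept, 9.55% of gained and 8.97% of lost promoters, against 7.84% of all. The octamer was in 1.09% of kept, 1.26% of gained and 2.07% of lost promoters, against 1.66% of all. Shares of the rarer motifs in gained and lost promoters rest on few promoters. Median CpG counts were 24 in kept, 20 in gained, 18 in lost and 13 in all promoters. The classes differed in CpG content as well as in matches to the CRE and other motifs, and a match is a run of letters, not a bound site.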

How the data were processed

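Per the labels, H3K56ac was immunoprecipitated from sorted B220+ splenocytes (2 libraries) and from bulk spleen with LPD (2 libraries). The submitters' processing notes name MACS2 2.0.10, Bowtie2 2.1.0, bedtools and Picard, with the build mm10; settings are not given in the sources used here. The deposited files are peak positions per library, with no score or read count, so depth is unknown. The narrowest H3K56ac peak was 200 bp.

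Regions, genes and other marks were handled with pandas 2.3.3, NumPy 2.4.6 and SciPy 1.17.1 under Python 3.11.15, and figures drawn with Matplotlib 3.10.9. Lengths were fitted with limma 3.58.1 in R 4.3.3 (lmFit, eBayes with trend; no trend for chromosomes), with Benjamini-Hochberg adjustment over all genes, kept regions or chromosomes. The pseudocount was 0.2 kb for genes and 100 bp for kept regions. Genes were 21887 protein-coding genes of RefSeq GRCm38.p6. Starts were known for 17492, and both span ends were used for the other 4395. Of 385 entries in 21 gene lists, 383 matched, 1 by an older symbol. The gene fit was tested on simulated data.

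The members and lists were chosen with earlier results of these data known, and the comparison of chromosomes after seeing the data. Genes were named by rule: Crebbp and Ep300, the 12 with the most gained and the 12 with the most lost sequence, the 10 largest called differences per direction with at least 2 kb in both higher lists, those at the 8 widest gained and lost regions at gene starts and the 8 largest width differences per direction, up to 4 per list, and the markers. Others were named after their values were seen, and a few genes are not reported here by name. Alternatives were left-out lists, lists of equal peak number or length, other filters, pseudocounts, distances and assignments, and a replicate block.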

Additional observations from a re-analysis of the deposited data

How the results depend on the processing

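The lists hold no depth, so list length and the amount of H3K56ac cannot be told apart. In lists of equal peak number 3821 regions were gained and 2475 lost, and 2651 genes were longer. With peaks of at least 400 bp, 5048 were gained and 667 lost, and the log2 differences of peak number and covered length were 0.71 and 0.96. With peaks up to 500 bp apart merged, 4999 were gained. Leaving out a list loosens the rule for gained and lost regions, which favours higher counts of both. With a list left out, gained regions ranged from 9022 to 12703, lost regions from 1720 to 3257, longer genes from 495 to 4873, shorter genes from 116 to 190, wider kept regions from 0 to 3307 and narrower ones from 0 to 126. With the lists scaled to equal length, 1637 genes were longer and 2360 shorter, and 917 kept regions were wider and 728 narrower. Scaled and without chromosomes 15 and 17 (chosen after seeing the data), 1337 genes were longer and 1810 shorter. Gained regions were at gene starts in 27.6% at 2 kb and 18.1% at 500 bp, and lost regions in 22.3% and 15.1%. Among named genes called in the main fit or in the alternative, the sign turned after scaling at Ccr7 (-0.45), Cd74 (-0.67), Cxcr4 (-0.52), Ebf1 (-0.193), Fos (-0.65), H2-Aa (-0.65), Hdac1 (-0.56), Klf2 (-0.47), Nr4a1 (-0.37) and Pax5 (-0.081), and at Dusp1 with gene spans only (0.39). Scaled without those chromosomes, it turned among such genes at Cd74 (-0.60), Cxcr4 (-0.45), Ebf1 (-0.117), Fos (-0.57), Hdac1 (-0.48), Klf2 (-0.40) and Pax5 (-0.0052). Genes called in neither fit were left out here. Some of them also turned after scaling, such as Adgre1 (-0.34), Klf1 (-0.12), Lck (-0.31), Mcm5 (-0.38) and Prdm1 (-0.14). These settings change how much of each list enters; any other cause was not tested. Of 102 named genes with a fit, 100 had the same outcome with the replicate block, which includes genes called in neither fit. Ebf1 and Foxp1 lost their call. The replicate block called 3284 longer and 276 shorter genes, and 1928 wider and 144 narrower kept regions. The replicate numbers are not shown to pair the lists: the deviations of same-numbered lists correlated at -0.033 over genes.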
